A study of Mus musculus with 12 samples.

Results

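The region described here is a 4 Mb segment of mouse chromosome 5 that holds Hmgb1 and Slc7a1. Its members are the genes of the deposited tables that start inside it, from Lnx2 (start at base 147016655) to Kl (start at base 150952607), and that had a value above 0 in at least 1 library. Hsph1 was left out by the rule. The segment was chosen from the values themselves, because Hmgb1 and Slc7a1 were both lower in Slit2-Tg hearts and lie within 1 Mb of each other. The comparison therefore asks whether their neighbours differed as well. The rule took 69 of the 52858 genes in the tables. A further 45 genes of the segment were at 0 in every library.

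The 12 libraries covered both genotypes with and without ischemia-reperfusion (IR), with 3 hearts in each of 4 groups. C57-non-IR and C57-IR hearts were from C57BL/6J mice, the background strain. Slit2-non-IR and Slit2-IR hearts were from Slit2-Tg mice, which carry human Slit2 cDNA behind the CMV promoter, a promoter that is not specific to heart muscle. The transgene was first injected into oocytes of a C57 × CBA F1 cross, and carriers were found by PCR screening of heterozygotes. All mice were males of 3 to 5 months, and each heart was perfused outside the body by the Langendorff method. After 20 min of equilibration, the flow to IR hearts was stopped for 20 min and restored for 40 min, whereas non-IR hearts were perfused for 80 min without a stop. The labels gave the genotype, and the letters of the sample titles, set against the groups in the methods, gave the IR status. Nothing in the labels says which hearts shared a litter or a day, so p-values measure the spread between these hearts.

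Hmgb1 encodes an abundant chromatin protein that bends DNA in the nucleus and that acts as an alarm signal through receptors such as RAGE and TLR4 when injured cells release it. Slc7a1 encodes CAT1, a membrane transporter that brings arginine, lysine and ornithine into cells. Genes that lie close together are usually inherited together when strains are crossed, and they can share regulatory DNA. Neither inheritance nor regulatory DNA was measured in these libraries.

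Hmgb1 and Slc7a1 lie on the minus strand, with 646797 bases between their gene bodies. Slc7a1 (ENSMUSG00000041313) spans chr5:148327410-148399904 and Hmgb1 (ENSMUSG00000066551) spans chr5:149046702-149184489 in the deposited coordinates, on mm10. The 250 bases before their RefSeq starts (GRCm38.p6) are shown because both genes were lower in the same hearts, together with those of Ubl3, the first gene on the Hmgb1 side of Slc7a1, whose values overlapped between the genotypes. Each reads 5′ to 3′ on the gene's strand. Capitals mark matches on either strand to the motif CCAAT or to the GC box, which was spelled GGGCGG. The TATA box, which was spelled TATAAA, was also searched, and the motifs do not overlap each other in these windows.
Hmgb1, chr5:149053058-149053307, minus strand: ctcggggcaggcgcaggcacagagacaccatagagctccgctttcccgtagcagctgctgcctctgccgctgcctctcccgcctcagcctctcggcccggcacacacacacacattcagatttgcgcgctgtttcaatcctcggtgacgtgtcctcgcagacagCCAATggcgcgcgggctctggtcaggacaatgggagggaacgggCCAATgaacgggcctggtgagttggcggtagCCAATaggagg
Slc7a1, chr5:148399905-148400154, minus strand: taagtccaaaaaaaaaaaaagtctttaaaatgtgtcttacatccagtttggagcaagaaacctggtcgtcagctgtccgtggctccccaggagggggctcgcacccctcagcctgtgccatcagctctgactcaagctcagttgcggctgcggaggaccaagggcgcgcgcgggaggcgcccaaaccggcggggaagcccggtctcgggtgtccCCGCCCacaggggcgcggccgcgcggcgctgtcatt
Ubl3, chr5:148552789-148553038, minus strand: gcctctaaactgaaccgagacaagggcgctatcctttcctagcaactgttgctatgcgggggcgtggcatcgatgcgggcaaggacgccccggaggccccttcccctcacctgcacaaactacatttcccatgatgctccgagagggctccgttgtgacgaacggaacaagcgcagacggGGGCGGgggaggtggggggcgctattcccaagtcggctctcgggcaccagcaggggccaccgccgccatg

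The Hmgb1 window held 3 matches to the CCAAT motif and none to the others. The Slc7a1 and Ubl3 windows each held 1 match to the GC box, and no window held the TATA box. Of 32851 RefSeq promoter windows of the same length, 33.8% held the CCAAT motif, 32.7% the GC box and 12.4% the TATA box. The windows contained 19 (Hmgb1), 21 (Slc7a1) and 20 (Ubl3) CpG pairs, against a median of 6 over all windows. No motif was common to Hmgb1 and Slc7a1 and missing from Ubl3 among those searched. The table holds a second start for Hmgb1 and for Slc7a1, and the one farther upstream was used. The deposited Hmgb1 body reaches beyond this RefSeq start. A promoter entry was found for 21 of the 27 members that were tested.

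The values are FPKM, fragments scaled to gene length and library size, and the equivalent of 16601154 to 24841291 reads per library lay on genes. Of these, 15457 to 22357 reads per library lay on the 69 members. A member was tested where at least 3 libraries reached 10 reads, at the depth of the median library, and the total came to 15 reads. The filter left 27 members, of which 21 code for proteins, 3 are lincRNAs, 2 are processed pseudogenes and 1 is a processed transcript. The other 42 had at most 11 reads in any library, with a median total of 12 reads over the 12 libraries. None of them separated the genotypes, but with so few reads this was hardly possible, so nothing is read from it. They comprised 15 lincRNAs, 7 processed pseudogenes, 6 antisense RNAs, 5 protein-coding genes and 9 others. Levels among the tested members ran from Flt1 at a mean of 19.5 FPKM over the 12 libraries to Flt3 at 0.0422 FPKM, with Hmgb1 sixth at 6.26 FPKM and Slc7a1 eleventh at 3.22 FPKM.

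Some facts of the whole series bear on these values. Ventricular muscle markers summed to 14887 to 22719 FPKM per library, so the labelled tissue was present, whereas 7 atrial markers summed to 1704 FPKM in Slit2-IR replicate 1 and to 30.3 to 244 FPKM elsewhere. The mouse Slit2 row ranged from 0.0847 to 0.813 FPKM in the 12 libraries and did not separate the genotypes, and it does not check the labels because the transgene is human cDNA. In bulk tissue, fewer cells of a type and less RNA per cell cannot be told apart. The counting was not stated to use strand, and 17 of the 27 tested members overlap another member.

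Hmgb1 was lower in Slit2-Tg than in C57BL/6J hearts without ischemia and lower again after IR. Its level was 7.70, 7.15 and 7.96 FPKM in the C57-non-IR hearts and 7.88, 8.14 and 8.07 FPKM in the C57-IR hearts. It was 5.29, 5.53 and 5.69 FPKM in the Slit2-non-IR hearts and 3.90, 4.37 and 3.39 FPKM in the Slit2-IR hearts. Thus the 6 Slit2-Tg values lay below the 6 C57BL/6J values, and the Slit2-IR values lay below the Slit2-non-IR values. The mean was 27.6% lower in non-IR hearts (5.50 ± 0.201 against 7.60 ± 0.415 FPKM, SD, n = 3) and 51.6% lower in IR hearts (3.89 ± 0.495 against 8.03 ± 0.135 FPKM, SD, n = 3). On the log2(FPKM + 1) scale, which understates the change of low genes, the differences were -0.40 ± 0.09 and -0.89 ± 0.09 (SE).

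Slc7a1 had the same order of groups. Its level was 4.69, 4.17 and 3.74 FPKM in C57-non-IR hearts and 5.87, 5.26 and 3.91 FPKM in C57-IR hearts. It was 2.57, 2.61 and 2.15 FPKM in Slit2-non-IR hearts and 1.25, 1.15 and 1.32 FPKM in Slit2-IR hearts. Again the 6 Slit2-Tg values lay below the 6 C57BL/6J values, with no overlap. The mean was 41.8% lower in non-IR hearts (2.44 ± 0.254 against 4.20 ± 0.474 FPKM, SD, n = 3) and 75.3% lower in IR hearts (1.24 ± 0.0857 against 5.01 ± 1.003 FPKM, SD, n = 3). The differences in log2(FPKM + 1) were -0.59 ± 0.13 and -1.41 ± 0.13 (SE). Because both genes were selected on these genotype differences, the values are given as a description and without a test.

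**Figure D1:**
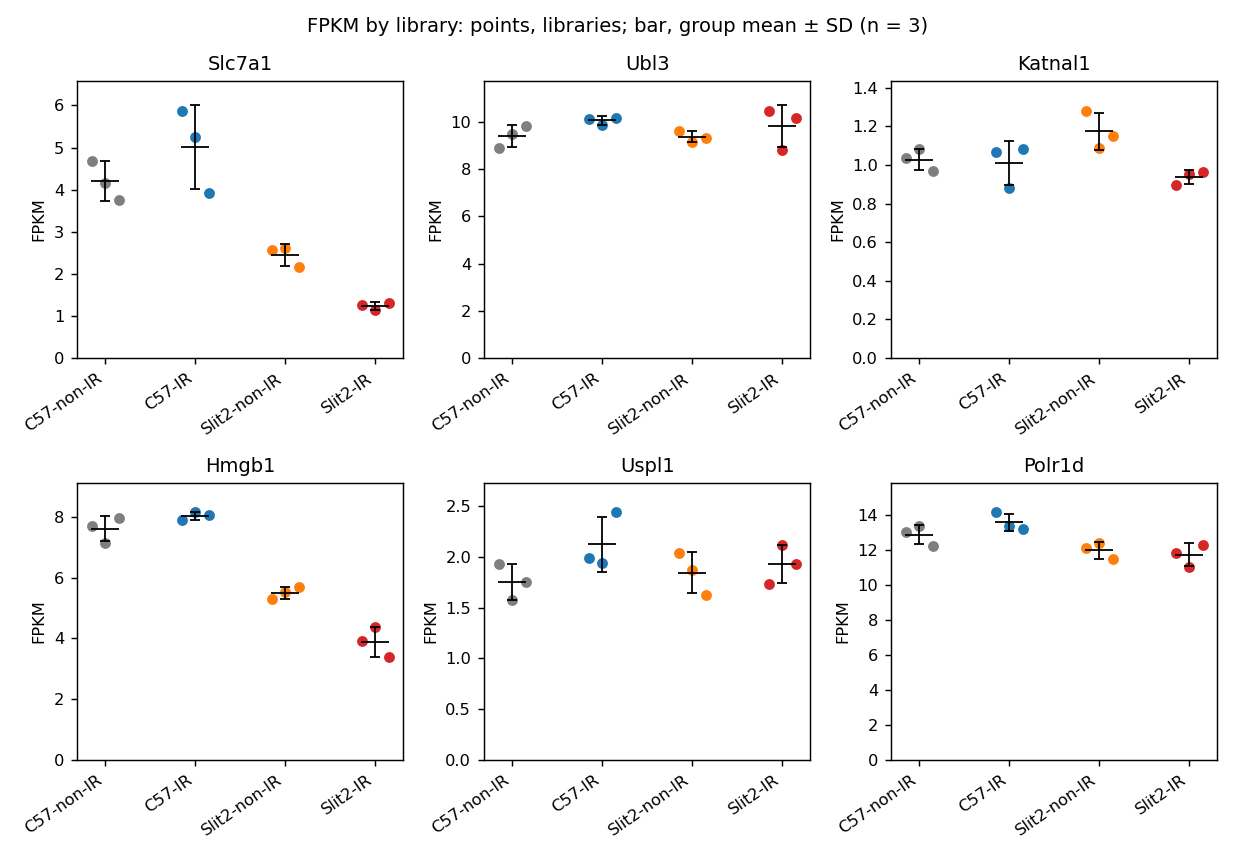
FPKM of Slc7a1, Ubl3, Katnal1, Hmgb1, Uspl1 and Polr1d in the 12 libraries by group; each point is 1 library, and the bar shows the mean ± SD of 3. Hmgb1 and Slc7a1 lie lower in both Slit2-Tg groups than in both C57BL/6J groups, whereas the other 4 genes overlap between the genotypes.

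Hmgb1 has near-identical pseudogene copies that can take up its reads, so they are given beside it. The tables list 13 copies on other chromosomes, of which 10 had a value above 0 and 2 passed the filter. Hmgb1-ps1 (chromosome 11) fell with genotype, from 0.984 ± 0.0511 to 0.318 ± 0.159 FPKM in non-IR hearts and from 0.775 ± 0.221 to 0.262 ± 0.0492 FPKM in IR hearts (SD, n = 3). Its log2 difference over both conditions was -0.54 ± 0.07 (SE, limma, adjusted p = 0.0138), but this rests on 90 reads in the 12 libraries. The adjusted p ranged from 0.0063 to 0.141 over 17 alternatives. Some of these reads may be those of Hmgb1, which was selected for its genotype difference, so nothing is read from this p-value.

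Hmgb1-ps2 (chromosome X) went the other way in some libraries. It was 5.91, 4.44 and 3.91 FPKM in C57-non-IR and 10.4, 5.02 and 3.85 FPKM in C57-IR hearts. It was 17.1, 5.93 and 4.97 FPKM in Slit2-non-IR and 32.5, 9.01 and 6.35 FPKM in Slit2-IR hearts. The highest value of each group was that of the library numbered 1, and the difference over both conditions did not pass the test (log2 difference 0.82 ± 0.40, SE; limma, adjusted p = 0.999). Per 1000000 reads, Hmgb1 and its 13 copies together had 39.7 to 43.6 in C57-non-IR, 43.9 to 46.9 in C57-IR, 31.9 to 38.0 in Slit2-non-IR and 21.5 to 40.8 in Slit2-IR hearts. With the copies added, the mean was 19.3% lower in non-IR hearts and 33.6% lower in IR hearts, and Slit2-IR replicate 1 (40.8) overlapped the C57-non-IR range. How reads were divided between Hmgb1 and its copies was not tested, so the size of the Hmgb1 difference is uncertain. The Hmgb1 body also overlaps Uspl1 by 140 bases on the opposite strand.

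**Figure D2:**
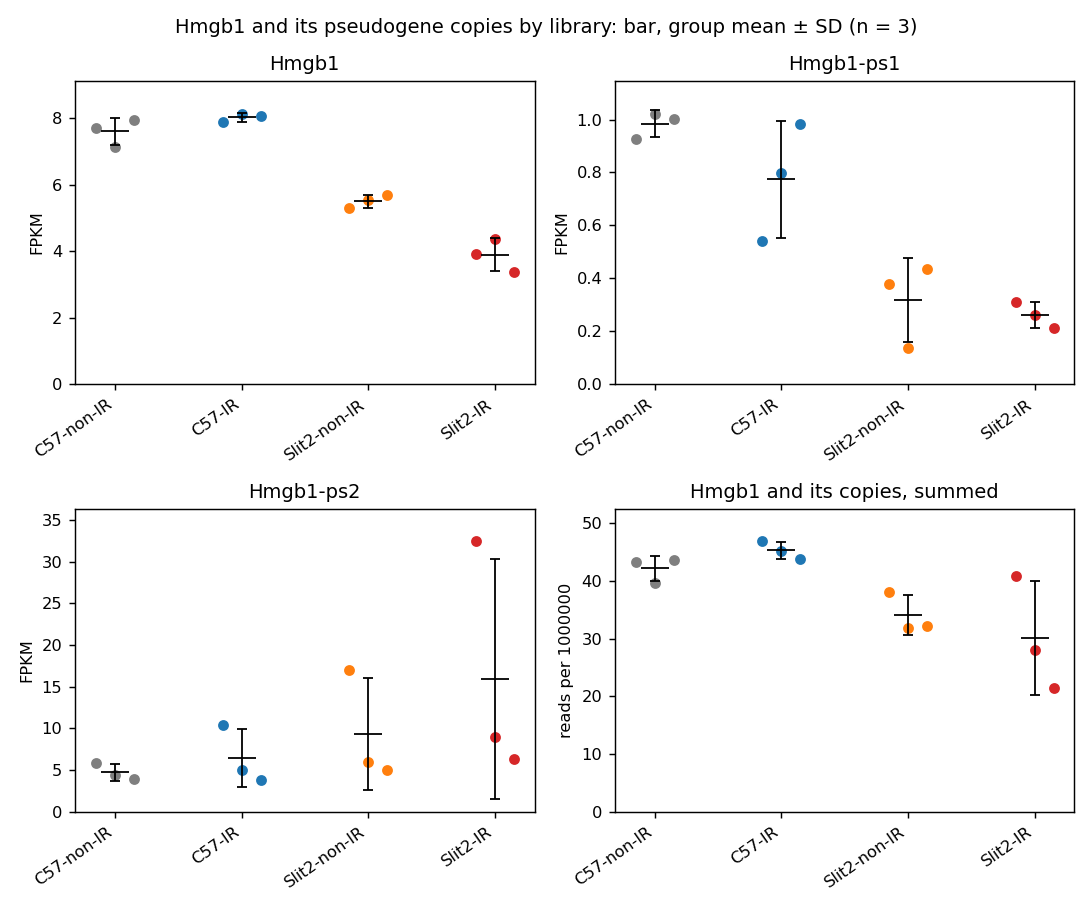
Hmgb1, Hmgb1-ps1 and Hmgb1-ps2 in FPKM, and the sum of Hmgb1 and its 13 copies in reads per 1000000, by library and group; the bar shows the mean ± SD of 3. Hmgb1-ps2 reaches 32.5 FPKM in 1 Slit2-IR library, and the summed value of that library, 40.8, overlaps those of C57-non-IR hearts.

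No neighbour passed the adjusted test between genotypes. Of the 25 tested neighbours, 0 had an adjusted p under 0.05 in non-IR hearts, against 0.0394% of the 15240 tested genes. The count was 0 of 25 in IR hearts as well (background 0.0459%) and 0 of 25 over the mean of both conditions (background 0.131%). In none of the 25 did the 6 Slit2-Tg values lie wholly below the 6 C57BL/6J values (background 0.177%) or wholly above them (background 0.236%). At backgrounds this low, a count of 0 in 25 is near the background and is not a result about the neighbours. limma-voom on the recovered reads also called 0 of 25 in each of the 3 comparisons.

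At the unadjusted cutoff of 0.05 that the study's methods name, few neighbours passed. In non-IR hearts 0 of 25 were lower (background 1.77%) and 1 of 25 was higher (background 1.42%). In IR hearts 2 of 25 were lower (background 1.38%) and 0 were higher (background 1.78%). Over both conditions 1 of 25 was lower (background 2.13%) and 0 were higher (background 2.0%). By limma-voom, 0, 2 and 3 of 25 passed in the same 3 comparisons, in either direction (backgrounds 2.88%, 2.87% and 3.98%). The 3 of the last comparison were Polr1d and N4bp2l2, lower, and Mtus2, higher.

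The median log2 difference of the 25 neighbours was -0.00 in non-IR hearts, -0.03 in IR hearts and -0.01 over both conditions, and that of the 15240 genes was -0.00 in each. The log2 difference was below 0 for 13 of the 25 in non-IR hearts (background 51.1%) and for 14 in IR hearts (background 50.1%). Over both conditions it was below 0 for 17 (background 50.7%), and these shares were not tested. The neighbours ranged from -0.27 to 0.23 in non-IR hearts and from -0.41 to 0.25 in IR hearts on the log2(FPKM + 1) scale, which compresses genes under 1 FPKM. By limma-voom on the recovered reads they ranged from -0.54 to 0.53 and from -0.53 to 0.41. On that scale Hmgb1 was at -0.46 and -1.05, so in non-IR hearts some neighbours lay farther from 0 than Hmgb1.

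**Figure D3:**
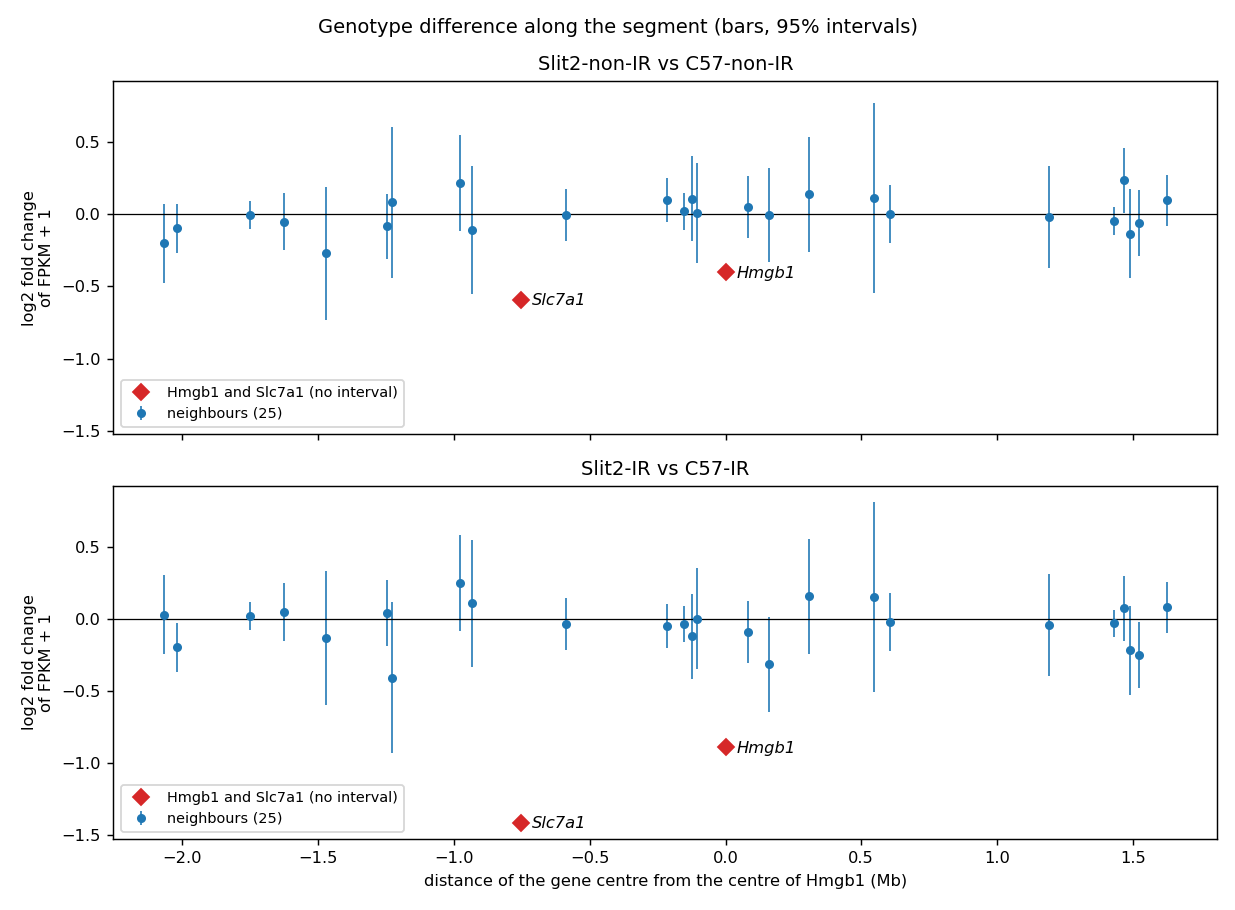
Log2 difference of FPKM + 1 between genotypes (vertical axis) against the distance of each tested gene's centre from the centre of Hmgb1 in Mb (horizontal axis), in non-IR hearts (top) and IR hearts (bottom). Bars are 95% intervals for the 25 neighbours, and Hmgb1 and Slc7a1, which chose the segment, are drawn without one. The neighbours lie between -0.41 and 0.25, and Hmgb1 is at -0.40 in non-IR hearts. This scale compresses genes under 1 FPKM, and by limma-voom the neighbours range from -0.54 to 0.53.

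The 5 tested genes between Slc7a1 and Hmgb1 had values that overlapped between the genotypes. Ubl3, a ubiquitin-like protein, was 8.90 to 9.82 FPKM in C57-non-IR, 9.86 to 10.2 FPKM in C57-IR, 9.15 to 9.62 FPKM in Slit2-non-IR and 8.80 to 10.5 FPKM in Slit2-IR hearts. Its log2 difference over both conditions was -0.02, with a 95% interval of -0.15 to 0.11. Katnal1, related to the microtubule-severing enzyme katanin, was 1.02 ± 0.0809 FPKM in C57BL/6J and 1.06 ± 0.145 FPKM in Slit2-Tg hearts (SD, n = 6), and its interval was -0.08 to 0.13. The non-coding 1810059H22Rik, 5930430L01Rik and Gm15408 were below 1 FPKM. The log2 differences of the 5 genes over both conditions ran from -0.02 to 0.02 on the log2(FPKM + 1) scale, which compresses the non-coding genes. By limma-voom the 95% intervals of the non-coding genes were -0.50 to 0.42, -0.69 to 0.66 and -0.61 to 0.88. Their limma-voom differences ran from 0.00 to 0.33 in non-IR and from -0.36 to 0.27 in IR hearts.

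Uspl1, a SUMO protease, starts within the Hmgb1 body on the other strand. It was 1.57 to 1.93 FPKM in C57-non-IR, 1.94 to 2.44 FPKM in C57-IR, 1.63 to 2.03 FPKM in Slit2-non-IR and 1.74 to 2.12 FPKM in Slit2-IR hearts. The groups overlapped, and the log2 difference over both conditions was -0.02 (95% interval -0.17 to 0.13). Among the 18 neighbours within 1 Mb of Hmgb1 or Slc7a1, none passed the unadjusted cutoff between genotypes on the log2(FPKM + 1) scale. The backgrounds there were 1.38% to 2.13% in each direction. By limma-voom 1 of the 18 did, Mtus2, over both conditions (background 3.98%). A count of 0 or 1 in 18 is near these backgrounds.

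Polr1d, a subunit shared by RNA polymerases I and III, lies near the far end of the segment from Hmgb1. It was 13.0, 13.3 and 12.2 FPKM in C57-non-IR and 14.1, 13.3 and 13.2 FPKM in C57-IR hearts. It was 12.1, 12.4 and 11.4 FPKM in Slit2-non-IR and 11.8, 11.0 and 12.3 FPKM in Slit2-IR hearts. The IR groups did not overlap, and the non-IR groups did. The log2 difference was -0.10 ± 0.08 in non-IR hearts and -0.20 ± 0.08 in IR hearts (SE; limma, unadjusted p = 0.242 and 0.0263), and over both conditions it was -0.15 ± 0.05 (unadjusted p = 0.0210, adjusted p = 0.999).

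N4bp2l2 and N4bp2l1, neighbours of each other, were nominally different in opposite directions. N4bp2l2 was 1.23, 1.48 and 1.85 FPKM in C57-non-IR, 1.43, 1.55 and 1.75 FPKM in C57-IR, 1.42, 1.44 and 1.35 FPKM in Slit2-non-IR and 0.942, 1.29 and 1.27 FPKM in Slit2-IR hearts. Only the IR groups were apart, with a log2 difference of -0.25 ± 0.10 (SE; limma, unadjusted p = 0.0352, adjusted p = 0.9996). N4bp2l1 was 0.631, 0.559 and 0.606 FPKM in C57-non-IR, 0.736, 0.904 and 0.700 FPKM in C57-IR, 0.708, 1.23 and 0.746 FPKM in Slit2-non-IR and 0.801, 1.05 and 0.777 FPKM in Slit2-IR hearts. The non-IR groups did not overlap, and the log2 difference there was 0.23 ± 0.10 (SE; limma, unadjusted p = 0.0432, adjusted p = 0.9995). In IR hearts the N4bp2l1 groups overlapped.

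The other neighbours are given by role. Of the receptor kinases, Flt1, a receptor for VEGF, had a log2 difference over both conditions of -0.20 (95% interval -0.53 to 0.12), and Flt3, a receptor of blood progenitors, was at 0 to 0.0842 FPKM. Flt1 was 13.0 to 15.03 FPKM in the libraries numbered 1 of the Slit2-IR, C57-IR and Slit2-non-IR groups and 17.5 to 25.3 FPKM in the other 9. The 10 endothelial markers summed to 251 to 260 FPKM in those 3 libraries and to 339 to 416 FPKM in the others, with none at 0 throughout, and their part in the Flt1 values was not tested. Slc46a3, a lysosomal transporter, had a log2 difference of -0.16 (95% interval -0.53 to 0.21) over both conditions.

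Of the RNA, protein and ubiquitin genes, Pan3 (mRNA deadenylation), Pomp (proteasome assembly), Lnx2 (a ubiquitin ligase) and B3glct (a glucosyltransferase) had log2 differences over both conditions of -0.00, -0.02, -0.09 and -0.01. Of the chromatin and repair genes, Pds5b, a cohesin partner, was at 0.09, and Brca2, of homologous recombination, was at -0.04 with 13 to 39 reads per library. By limma-voom Brca2 was at -0.45 (95% interval -1.06 to 0.17). Of the microtubule and signalling genes, Mtus2 was at 0.23 (95% interval -0.00 to 0.47) and Fry at -0.03. Alox5ap, which serves leukotriene synthesis, was at -0.16, and Medag, of fat cell differentiation, at 0.15. The pseudogenes Gm10167 and Gm5566 and the lincRNA Gm43597 were at -0.00, 0.13 and -0.18. The log2(FPKM + 1) scale compresses genes at such low levels. By limma-voom they were at 0.02, 0.47 and -0.36, with 95% intervals of -0.63 to 0.68, -0.76 to 1.70 and -0.80 to 0.07.

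A count of calls does not show that genes were alike in the genotypes, so the intervals of the neighbours are given as well. Because genes under 1 FPKM are compressed on the log2(FPKM + 1) scale, limma-voom log2 differences of the recovered reads were used, with fold limits that were chosen after the values were seen. Over both conditions the 95% interval of 22 of the 25 neighbours stayed within a 2-fold difference in either direction, and that of 16 within 1.5-fold. The 3 that reached beyond 2-fold were Gm5566, Brca2 and Flt3, which had few reads. In non-IR hearts 18 of 25 stayed within 2-fold and 12 within 1.5-fold. In IR hearts 17 of 25 stayed within 2-fold and 10 within 1.5-fold.

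**Figure D4:**
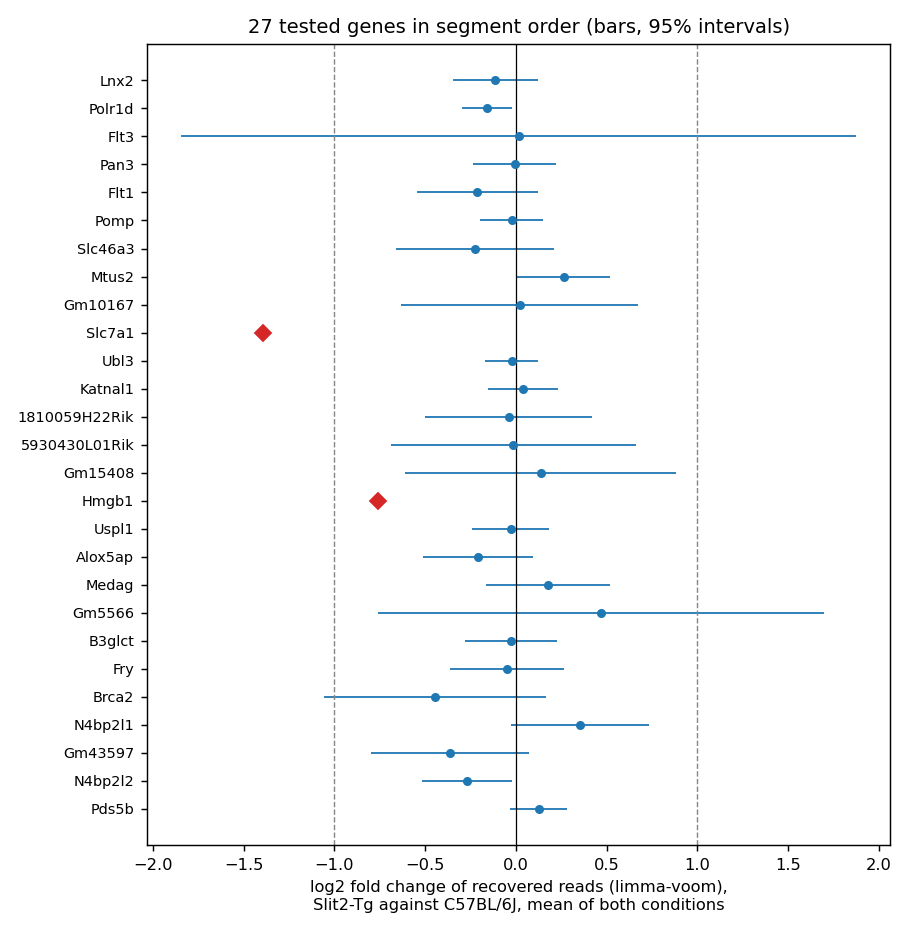
Limma-voom log2 difference of recovered reads, Slit2-Tg against C57BL/6J over both conditions (horizontal axis), for the 27 tested genes in segment order. Bars are 95% intervals, the dashed lines mark a 2-fold difference in either direction, and Hmgb1 (-0.76) and Slc7a1 (-1.39), which chose the segment, are diamonds without intervals. The intervals of 22 of 25 neighbours lie between the dashed lines.

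Genes just outside the segment were compared in the same way. The first member is Lnx2, and Mtif3, just outside, was 2.48 ± 0.157 FPKM in C57-non-IR and 2.59 ± 0.152 FPKM in Slit2-non-IR hearts (SD, n = 3). At the other edge Kl, the last member, and Gm8675, just outside, were below 0.04 FPKM. Over both conditions, 0 of 47 tested genes in the 4 Mb before the segment had an adjusted p under 0.05 (background 0.131%). At the unadjusted cutoff 1 was lower (background 2.13%) and 1 higher (background 2.0%). In non-IR hearts 2 of the 47 were lower (background 1.77%) and 0 higher (background 1.42%). In IR hearts 1 was lower (background 1.38%) and 1 higher (background 1.78%). In so few genes these counts are near the background and are not a result about the flank. The 3 tested genes beyond the segment had none at either cutoff. The medians over both conditions were -0.02 before the segment and -0.01 beyond it.

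IR was then compared within each genotype. Hmgb1 and Slc7a1 were selected on values of these same libraries, so they are described without a test here too, and the counts are over the 25 neighbours. In C57BL/6J hearts none of the 25 differed at an adjusted p under 0.05 (background 0.459%). None was lower at the unadjusted cutoff (background 4.42%) and none higher (background 4.55%). Without C57-IR replicate 1, 3 passed that cutoff (Medag, Gm43597 and Gm15408). In Slit2-Tg hearts none of the 25 had an adjusted p under 0.05 (background 0.525%). At the unadjusted cutoff 3 of 25 were lower (background 5.07%) and 0 higher (background 6.15%). These 3 were Slc46a3, Katnal1 and Gm43597, and Slc46a3 alone was left without Slit2-non-IR replicate 1, Slit2-IR replicate 1 or Slit2-IR replicate 2.

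After IR, Hmgb1 was at 0.07 ± 0.09 in C57BL/6J and -0.42 ± 0.09 in Slit2-Tg hearts (log2 difference, SE). Slc7a1 was at 0.20 ± 0.13 and -0.62 ± 0.13. Slc46a3 was 5.63, 7.92 and 5.54 FPKM in Slit2-non-IR and 2.85, 4.55 and 2.04 FPKM in Slit2-IR hearts. These values do not overlap, but Slc46a3 was picked out after its values were seen, so nothing is read from that. Its log2 difference was -0.86 ± 0.24 (SE; limma, adjusted p = 0.150), and in C57BL/6J hearts, where the groups overlapped, it was -0.37 ± 0.24.

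The interaction of genotype and IR asks whether the IR response differed between genotypes. None of the 25 neighbours had an adjusted p under 0.05 (background 0.0%), and none was lower (background 0.787%) or higher (background 1.08%) at the unadjusted cutoff. The median log2 difference after IR of the neighbours was 0.03 in C57BL/6J and -0.01 in Slit2-Tg hearts, and their interaction median was -0.03.

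**Figure D5:**
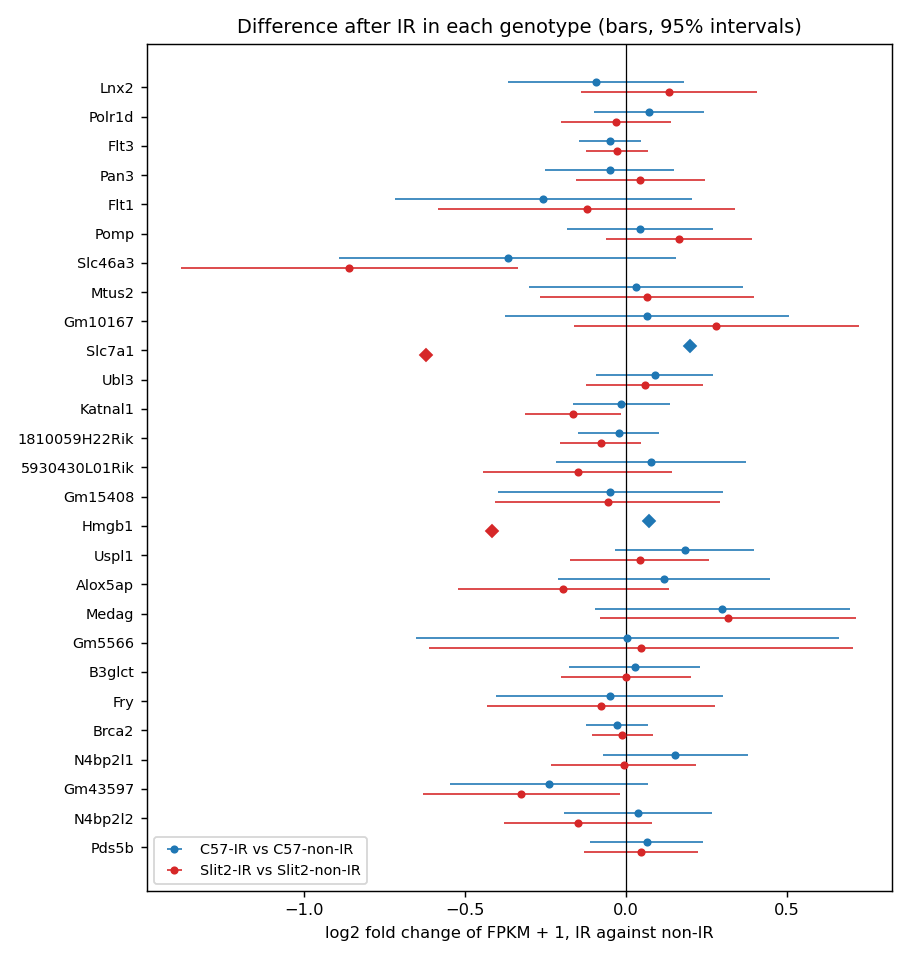
Log2 difference of FPKM + 1 between IR and non-IR hearts (horizontal axis) for the 27 tested genes in segment order, in C57BL/6J (blue) and Slit2-Tg hearts (red); bars are 95% intervals, and Slc7a1 and Hmgb1 are diamonds without one. They are at 0.20 and 0.07 in C57BL/6J hearts and at -0.62 and -0.42 in Slit2-Tg hearts.

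Genes that work with HMGB1 or handle arginine outside the segment were compared in the same way, from lists chosen for what they do. The HMGB1 list has 18 genes, including its relatives Hmgb2 and Hmgb3, the receptors Ager (RAGE), Tlr2 and Tlr4, and the adaptor Myd88, and each was tested. None had an adjusted p under 0.05 between genotypes or after IR. At the unadjusted cutoff 0 of 18 differed in non-IR hearts (backgrounds 1.77% lower and 1.42% higher). In IR hearts 1 of 18 was lower, Ager (background 1.38%), and over both conditions 2 of 18 were lower, Ager and Irak4 (background 2.13%). Ager was 0.326 ± 0.127 FPKM in C57-IR and 0.0821 ± 0.0352 FPKM in Slit2-IR hearts (SD, n = 3). Ager is also a lung marker, and the 6 lung markers summed to 0.246 to 11.3 FPKM in C57-IR and to 0.121 to 0.257 FPKM in Slit2-IR hearts, with none at 0 throughout. Their part in the Ager values was not tested.

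After IR, 4 of the 18 genes of the HMGB1 list were higher (background 4.55%) and 1 lower (background 4.42%) at the unadjusted cutoff in C57BL/6J hearts. In Slit2-Tg hearts 4 of 18 were higher (background 6.15%) and 2 lower (background 5.07%). Tlr2 was at 1.37 ± 0.32 in C57BL/6J (limma, adjusted p = 0.106) and 1.21 ± 0.32 in Slit2-Tg hearts (adjusted p = 0.129; log2 difference, SE). The median of the 18 genes was 0.15 and 0.20, against 0.00 and 0.01 for the 15240 genes. With the replicate number as a block, 1 gene had an adjusted p under 0.05 in each genotype, Tlr2 in C57BL/6J and Myd88 in Slit2-Tg hearts, and without C57-IR replicate 1 there were 2 in C57BL/6J hearts, Rela and Myd88. Without Slit2-IR replicate 3 there was 1 in Slit2-Tg hearts, Tlr2. The block also raised such calls over the 15240 genes, from 70 to 174 in C57BL/6J and from 80 to 202 in Slit2-Tg hearts. For the fits without 1 library no count over all genes is given, so nothing is read from these calls.

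Of the 19 genes on the arginine and cationic amino acid list, 16 were tested and none had an adjusted p under 0.05 in any comparison. Gatm, of creatine synthesis, was higher at the unadjusted cutoff in Slit2-Tg hearts in both conditions, at 2.24 ± 0.954 against 1.15 ± 0.233 FPKM without ischemia and 2.59 ± 0.697 against 1.42 ± 0.268 FPKM after IR (SD, n = 3; limma, adjusted p = 0.9995 and 0.9996). This was 1 of 16 higher in non-IR hearts (background 1.42%) and 1 of 16 in IR hearts (background 1.78%), and the other 15 did not pass that cutoff. After IR 3 of 16 were higher in C57BL/6J hearts (background 4.55%) and 5 of 16 in Slit2-Tg hearts (background 6.15%), and none was lower (backgrounds 4.42% and 5.07%). In C57BL/6J hearts Azin1 had an adjusted p under 0.05 with the block, and Odc1, Slc3a2 and Azin1 did without C57-IR replicate 1. The block raised such calls over the 15240 genes from 70 to 174 in these hearts. For the fit without C57-IR replicate 1 no count over all genes is given, so nothing is read from these calls. Odc1, of polyamine synthesis, was at 0.83 ± 0.18 in C57BL/6J (limma, adjusted p = 0.0808) and 0.76 ± 0.18 in Slit2-Tg hearts (adjusted p = 0.0946).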

How the data were processed

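RNA from 12 mouse heart libraries (4 groups of 3) was sequenced as paired ends from total RNA. The authors deposited FPKM values per gene; per the labels' processing notes, reads were mapped with HISAT2 to mm10. The counter, its annotation release and its use of strand are not given in the sources used here. FPKM multiplied by gene length fell on whole multiples of 1 step per library (100% of values within 0.1 of a read), which gave the recovered reads, 16601154 to 24841291 per library.

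Because FPKM values are no counts, limma 3.58.1 (R 4.3.3) was used to test log2(FPKM + 1) with a variance trend, the 4 groups fitted together (8 residual degrees of freedom), and Benjamini-Hochberg adjustment over 15240 genes. The scripts were tested on simulated data. limma-voom served as the count-based alternative. Alternatives were a pseudocount of 0.1, no filter, 10 reads in every library, the 6 libraries compared alone, upper-quartile scaling, a replicate block, and leaving out each library.

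Same-numbered libraries deviated together to some degree in every comparison. The correlations were 0.154 to 0.362 in Slit2-IR against C57-IR and 0.143 to 0.294 in Slit2-IR against Slit2-non-IR. They were 0.0377 to 0.324 in Slit2-non-IR against C57-non-IR and 0.0833 to 0.295 in C57-IR against C57-non-IR. In these last comparisons the highest was that of replicate 1. No label names a shared litter or day. The rule for naming genes was that each tested member is named, with library values for Hmgb1, Slc7a1 and members at an unadjusted p under 0.05 between genotypes or an adjusted p under 0.05 after IR; Slc46a3 was given so after its values were seen. A test of Hmgb1 and Slc7a1 after IR had been planned, but both were selected on these libraries, so their values are given without it. The members and lists were chosen with earlier results of these data known. Promoter windows are RefSeq sequences on GRCm38.p6.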

Additional observations from a re-analysis of the deposited data

How the results depend on the processing

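The call of 0 neighbours at an adjusted p under 0.05 held between genotypes under the alternatives run, after IR in each genotype and for the interaction. Hmgb1 and Slc7a1 were selected on these libraries, so they are left out of these counts and no call is given for them. Leaving out 1 library also gave 0 neighbours.

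At the unadjusted cutoff the counts moved more. In non-IR hearts 1 neighbour became 3 with no filter, 0 with the 6 libraries alone, 2 with the replicate block (the pairing) and 0 with limma-voom. In IR hearts 2 became 5 with no filter and 1 with the 6 libraries alone. Over both conditions 1 became 7 with no filter, 3 with the replicate block, 2 with upper-quartile scaling and 3 with limma-voom. With no filter the neighbours numbered 67 rather than 25. Over both conditions the block also raised the counts over the 15240 genes, from 324 lower and 305 higher to 492 and 420. In non-IR hearts the rise was from 270 and 216 to 422 and 261. The limma-voom shares are given above. For the other alternatives no share over all genes is given, so nothing is read from the changes in count. With 1 library left out, the ranges were 0 to 1 in non-IR hearts, 1 to 3 in IR hearts and 0 to 4 over both conditions. For IR they were 0 to 3 in C57BL/6J hearts and 1 to 2 of 25 in Slit2-Tg hearts. In Slit2-Tg hearts every such count was below the 3 of 25 of the main fit. For the interaction the range was 0 to 1. With no filter the extra genes have few reads, and otherwise the cause was not tested. Among the HMGB1 and arginine lists the block gave an adjusted p under 0.05 to Tlr2 and Azin1 after IR in C57BL/6J hearts. In Slit2-Tg hearts it did so for Myd88, and Rela passed with the 6 libraries alone and with limma-voom. Over the 15240 genes the block raised such calls from 70 to 174 in C57BL/6J and from 80 to 202 in Slit2-Tg hearts. There limma-voom gave 121, so nothing is read from these calls. Apart from Tlr2, Azin1 and Myd88, the block changed no call at an adjusted p under 0.05. This covers the counts over the 25 neighbours, the neighbours with library values between genotypes and the HMGB1 and arginine lists. Between genotypes, Hmgb1 and Slc7a1 were at -0.37 to -1.05 and -0.53 to -2.0002 in the separate conditions under the alternatives run. Both were selected for being lower in these same libraries, so nothing is read from their staying lower. Depth limits Flt3, Brca2 and Gm5566, which had as few as 0, 13 and 1 reads in a library.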
